A study of Mus musculus with 12 samples.

Results

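The core of the p53 feedback circuit was examined in a supernatant transfer experiment with 2 mouse pancreatic cell lines. It comprised 6 genes taken as a fixed list of symbols: the transcription factors Trp53 (ENSMUSG00000059552) and Trp63 (ENSMUSG00000022510), the p53 inhibitors Mdm2 (ENSMUSG00000020184), Mdm4 (ENSMUSG00000054387) and Ppm1d (ENSMUSG00000020525), and the effector Cdkn1a (ENSMUSG00000023067). All 6 had a row in both count tables, out of 17335 genes listed in either table, 16386 of them in the PSC4 table and 15309 in the KPC4 table.

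PSC4 is a murine line of pancreatic stellate cells, the matrix-producing stromal cells of the pancreas, and KPC4 is a murine pancreatic adenocarcinoma line. PSC4 cells were held for 24 h in medium from KPC4 donor cells that had received vehicle (Control-SU) or 10 µM gemcitabine, a cytidine analogue used as chemotherapy (Gem-SU). The donors had been exposed for 6 h, then washed, and had conditioned starvation medium for 14 h. For the second experiment, Control-SU or Gem-SU was put on PSC4 cells for 6 h and washed off, the cells conditioned fresh starvation medium for 18 h, and KPC4 cells were then held for 24 h in that medium (Control-PSC-SU or Gem-PSC-SU). All 4 groups therefore received conditioned starvation medium, none received drug directly by the labels, and each had 3 libraries called biological replicates. Each cell type is represented by 1 line. The Trp53 alleles of KPC4 and of PSC4 are not given in the sources used here.

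The protein p53 is held at a low level because Mdm2, itself a p53 target, marks it for destruction. Mdm4 binds p53 and blocks its activity, and the phosphatase Ppm1d (Wip1), another target, removes the phosphates that damage kinases place on p53 and on themselves. Stress that breaks this loop lets p53 accumulate, largely without a change in its own transcript, and raise its targets, among them Cdkn1a, whose product p21 inhibits cyclin-dependent kinases. Trp63 encodes p63, a relative of p53 known chiefly as a regulator of stratified epithelia.

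Library totals lay between 29559414 and 38138356 counts in PSC4 and between 26354328 and 34744150 in KPC4. Levels are given as CPM, the count scaled to a common library size after each total was adjusted by its TMM factor over all 12 libraries. In KPC4, 12 of 12 ductal or epithelial markers were above 3 counts in their highest library of each group, and not always in every library. Their summed level was 6000 to 7642 CPM. Of 12 stellate or fibroblast markers, Pdgfrb, Thy1, Dcn, Lum and Des had no row in KPC4. The stellate markers summed to 2479.8 to 2827 CPM with Control-PSC-SU and 1840.3 to 2285 CPM with Gem-PSC-SU, most of it Vim, an intermediate filament gene of many cultured cells (2630.3 ± 171 and 2096 ± 237 CPM; SD, n = 3 each). In PSC4, 11 of 12 stellate markers were above 3 counts in their highest library of each group. Their summed level was 8152 to 8832 CPM with Control-SU and 2400 to 3582 CPM with Gem-SU. Of the 12 epithelial markers, Epcam, Cdh1, Cldn4 and Spint1 had no row in PSC4. In their highest library, 7 were above 3 counts with Control-SU and 5 with Gem-SU. The epithelial markers summed to 34.1 to 38.7 and 55.0 to 59.6 CPM, most of it Sox9 (21.5 ± 3.31 and 42.7 ± 1.96 CPM, SD, n = 3 each). Both sums moved with the PSC4 comparison, and the stellate sum with the KPC4 comparison. Their part in the results below was not tested. Leukocyte markers summed to at most 1.65 CPM in any PSC4 library and 1.02 CPM in any KPC4 library.

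The first comparison asked how stellate cells differ when their medium comes from tumour cells given gemcitabine and not vehicle. Mdm2, Cdkn1a, Ppm1d and Trp53 rose and Trp63 fell, so that 5 of the 6 genes passed the threshold of 0.05 on the adjusted p of edgeR's quasi-likelihood test. Of all 13347 genes tested, 46.3% were called, 24.3% as higher and 22.0% as lower, so a call by itself is common here. The sizes differed widely. Mdm2 stood at 5.50 on the log2 scale, rank 52 of 13347 from the top, and Cdkn1a at 4.64, rank 93. Trp63 was rank 3 from the bottom, whereas Trp53 was rank 2750 from the top. Increases that were called and at least 4 on the log2 scale made up 0.996% of genes tested.

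Trp53, the sensor of the circuit, stood at 132, 85.5 and 93.3 CPM in Control-SU replicates 1, 2 and 3 and at 182, 158 and 169.6 CPM in the Gem-SU replicates. The groups did not overlap, although the highest control, replicate 1, lay closer to the Gem-SU libraries than to the other controls. Its mean rose from 104 ± 25.0 to 169.7 ± 12.1 CPM (SD, n = 3 each), with a fitted log2 change of 0.76 (SE 0.18; edgeR, adjusted p = 0.0102). Without Control-SU replicate 3 the log2 fold change was 0.65 and the call was lost (edgeR, adjusted p = 0.0600). The authors' deposited table lists 0.73 with an adjusted p of 0.00143. Wrap53, which is transcribed from the opposite strand beside Trp53 and partly overlaps it, rose from 15.3 ± 0.196 to 66.8 ± 9.17 CPM (SD, n = 3 each), a fitted log2 change of 2.17 (edgeR, adjusted p = 5.47e-05). That was a gain of 51.4 CPM against a gain of 66.1 CPM for Trp53. Whether the counting used strand is not given in the sources used here, so reads of the 2 genes from their overlap cannot be told apart.

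Trp63 gave 166, 167 and 200 counts in the Control-SU libraries, or 4.88, 5.28 and 6.60 CPM, and 3, 1 and 3 counts in the Gem-SU libraries. Every control library thus held a modest but clear signal, and every Gem-SU library was at or under 3 counts. The gene fell (edgeR, adjusted p = 5.47e-05), and the ratio of the summed counts per effective library total was 82.2, with a counting interval from 39.6 to 205 at the 95% level. That interval covers counting error only. In bulk RNA, fewer cells that carry a transcript and less of it per cell cannot be told apart. Of 6 basal or squamous epithelial markers, Krt5, Krt6a and Dsg3 had no row in PSC4, and Krt14 gave 0 CPM with Control-SU and 0.0589 ± 0.0515 CPM (SD, n = 3) with Gem-SU. Col17a1 averaged 0.767 ± 0.341 and 0.675 ± 0.189 CPM, and Pkp1, a desmosome gene, 3.32 ± 0.466 and 8.13 ± 1.46 CPM (SD, n = 3 each). The list summed to 3.65 to 4.95 CPM with Control-SU and 7.56 to 10.6 CPM with Gem-SU, opposite in direction to Trp63, and its part in that result was not tested.

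Mdm2, the ubiquitin ligase of p53, had 82.0, 92.3 and 64.5 CPM in the Control-SU libraries and 3021, 4355 and 3074 CPM in the Gem-SU libraries. Every Gem-SU library was far above every control, with replicate 2 highest in each group. By count, Mdm2 ranked 3085, 2734 and 3919 among the 16386 genes of the control libraries and 6, 3 and 5 among those of the Gem-SU libraries. Its transcript made up 0.360% ± 0.0801 (SD, n = 3) of all counts with Gem-SU, against 0.00778% ± 0.00122 with Control-SU. The fitted log2 change was 5.50 (SE 0.28; edgeR, adjusted p = 1.93e-05), and same-numbered libraries gave ratios of 36.8, 47.2 and 47.6.

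Ppm1d, the phosphatase, had 30.2, 30.8 and 23.0 CPM with Control-SU and 124, 148 and 103 CPM with Gem-SU. The groups lay well apart, with replicate 2 highest and replicate 3 lowest in each. The mean rose from 28.0 ± 4.33 to 125 ± 22.4 CPM (SD, n = 3 each), with a fitted log2 change of 2.20 (SE 0.19; edgeR, adjusted p = 1.01e-04).

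Mdm4 had 70.8, 96.0 and 91.5 CPM with Control-SU and 84.4, 134 and 130.4 CPM with Gem-SU. Gem-SU replicate 1 fell among the controls, so the groups overlapped, while each Gem-SU library exceeded the control of its own number. The log2 fold change of 0.48 (standard error 0.21, 95% interval 0.0051 to 0.95) did not pass (edgeR, adjusted p = 0.0899). Without Gem-SU replicate 1 it was 0.67 (edgeR, adjusted p = 0.00911). The interval lies far below the change of Mdm2, whose own 95% interval was 4.86 to 6.13. Groups did not overlap for the other 5 genes, and for 56.7% of all genes tested.

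Cdkn1a, the effector, had 48.3, 32.7 and 34.1 CPM with Control-SU and 949, 1084 and 757 CPM with Gem-SU. Here too the groups were far apart, and the gene ranked 63, 43 and 98 by count in the Gem-SU libraries against 4963, 6161 and 6153 in the controls. Its mean rose from 38.4 ± 8.60 to 929.6 ± 164 CPM (SD, n = 3 each), with a fitted log2 change of 4.64 (SE 0.25; edgeR, adjusted p = 1.93e-05). The authors' deposited table lists 5.24 for Mdm2, 4.51 for Cdkn1a, 2.22 for Ppm1d and -6.30 for Trp63 as log2 fold changes.

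**Figure D1:**
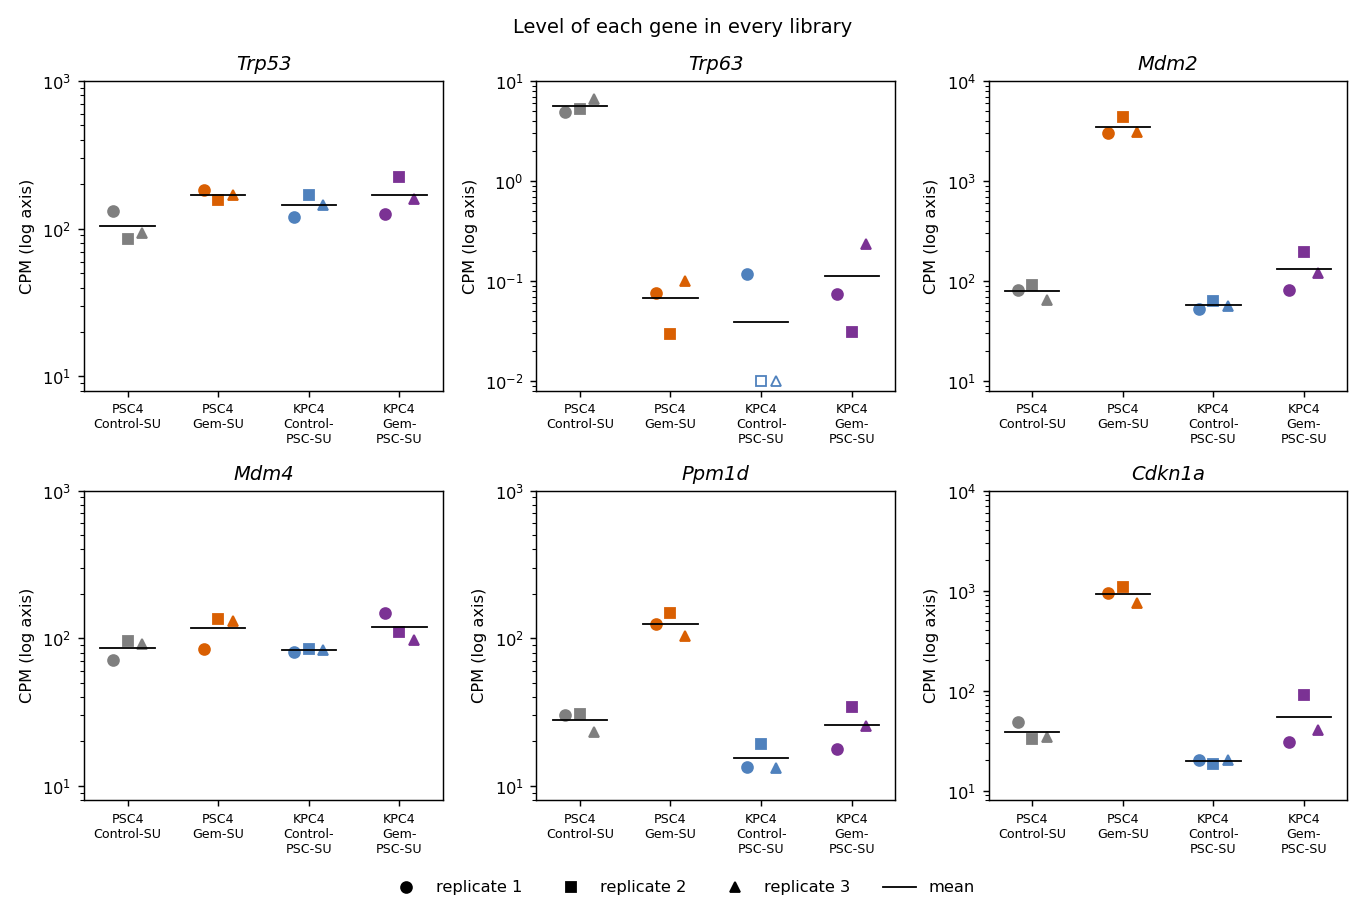
CPM of each gene (log axis) in all 12 libraries by group, with the replicate number as the marker shape and the group mean as a line; open markers at the lower edge are libraries with 0 counts. Mdm2 and Cdkn1a stand far above their controls in PSC4 with Gem-SU, Trp63 is lost there, and in KPC4 replicate 2 is the highest Gem-PSC-SU library for Trp53, Mdm2, Ppm1d and Cdkn1a.

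The genes that rose together in PSC4 are shown with the windows around their RefSeq start sites (GRCm38.p6, 250 bases before to 50 after), since p53 binds DNA through paired decamers known as half-sites. Capitals mark each match to the p53 half-site consensus, which reads alike on both strands. The Mdm2 window is chr10:117710709-117711008 on the minus strand, the Ppm1d window chr11:85311004-85311303 on the plus strand, and the upstream Cdkn1a window chr17:29090729-29091028 on the plus strand.
Mdm2: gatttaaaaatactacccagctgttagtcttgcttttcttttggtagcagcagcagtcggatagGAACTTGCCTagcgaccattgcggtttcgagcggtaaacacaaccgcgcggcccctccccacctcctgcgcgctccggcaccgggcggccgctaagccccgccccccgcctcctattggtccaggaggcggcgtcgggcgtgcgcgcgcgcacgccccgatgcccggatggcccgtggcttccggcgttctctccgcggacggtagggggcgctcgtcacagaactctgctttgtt
Ppm1d: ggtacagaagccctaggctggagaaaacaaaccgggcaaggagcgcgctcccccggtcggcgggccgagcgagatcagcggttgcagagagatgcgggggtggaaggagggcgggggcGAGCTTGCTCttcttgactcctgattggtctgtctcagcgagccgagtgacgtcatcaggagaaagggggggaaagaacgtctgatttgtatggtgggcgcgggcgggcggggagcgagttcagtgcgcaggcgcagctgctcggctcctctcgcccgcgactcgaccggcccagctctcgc
Cdkn1a: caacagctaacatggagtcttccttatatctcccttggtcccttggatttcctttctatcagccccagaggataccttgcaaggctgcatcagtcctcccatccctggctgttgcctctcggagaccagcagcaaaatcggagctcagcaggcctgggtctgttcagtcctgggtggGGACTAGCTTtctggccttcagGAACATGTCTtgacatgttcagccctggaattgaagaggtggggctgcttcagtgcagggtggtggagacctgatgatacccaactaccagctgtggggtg
In the upstream Cdkn1a window the matches GGACTAGCTT and GAACATGTCT began 73 and 51 bases before the start. The core letters of the second match, CATG, occurred 3 times there, and those of the first match are CTAG. CATG lay once inside the second match and once shortly after it, 38 bases before the start, in letters not marked as a match. In all, 10.8% of all windows hold CATG at least 3 times. The match in Mdm2 was GAACTTGCCT, 186 bases before the start, and that in Ppm1d was GAGCTTGCTC, 132 bases before it. Trp53 (chr11:69580109-69580408, plus strand) held GGACTTGCCC, 75 bases before its start, while the downstream Cdkn1a window and both Mdm4 windows held no such letters. In all, 5 of the genes had 7 windows, and 2745 of 32851 mouse windows, or 8.36%, held a match. A match describes letters and is not a binding site, and elements in introns or farther away were not searched.

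Within a library, the ratio of 2 counts does not depend on the library total. Mdm2 counts per Trp53 count were 0.621, 1.08 and 0.692 with Control-SU and 16.6, 27.6 and 18.1 with Gem-SU, and no Gem-SU library came near a control. On the log scale this was a 26.2-fold shift (two-sided exact permutation test, p = 0.1, the smallest p that 3 against 3 allows; 0.15 adjusted over 12 comparisons). The paralogue Mdm4 was left behind: Mdm2 per Mdm4 went from 0.942 ± 0.227 to 30.6 ± 6.30 (SD, n = 3 each; exact p = 0.1). Cdkn1a per Trp53 was 0.365, 0.383 and 0.366 with Control-SU and 5.21, 6.88 and 4.46 with Gem-SU, a shift of 14.6-fold (exact p = 0.1). The control values are nearly equal although Trp53 and Cdkn1a themselves varied among those libraries. Ppm1d per Trp53 moved less, from 0.279 ± 0.0716 to 0.744 ± 0.173 (SD, n = 3 each; exact p = 0.1). Between the leading targets, Cdkn1a per Mdm2 went from 0.588, 0.355 and 0.529 to 0.314, 0.249 and 0.246, lower in each Gem-SU library than in any control (exact p = 0.1). Mdm4 per Trp53 overlapped between groups (exact p = 0.5).

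**Figure D2:**
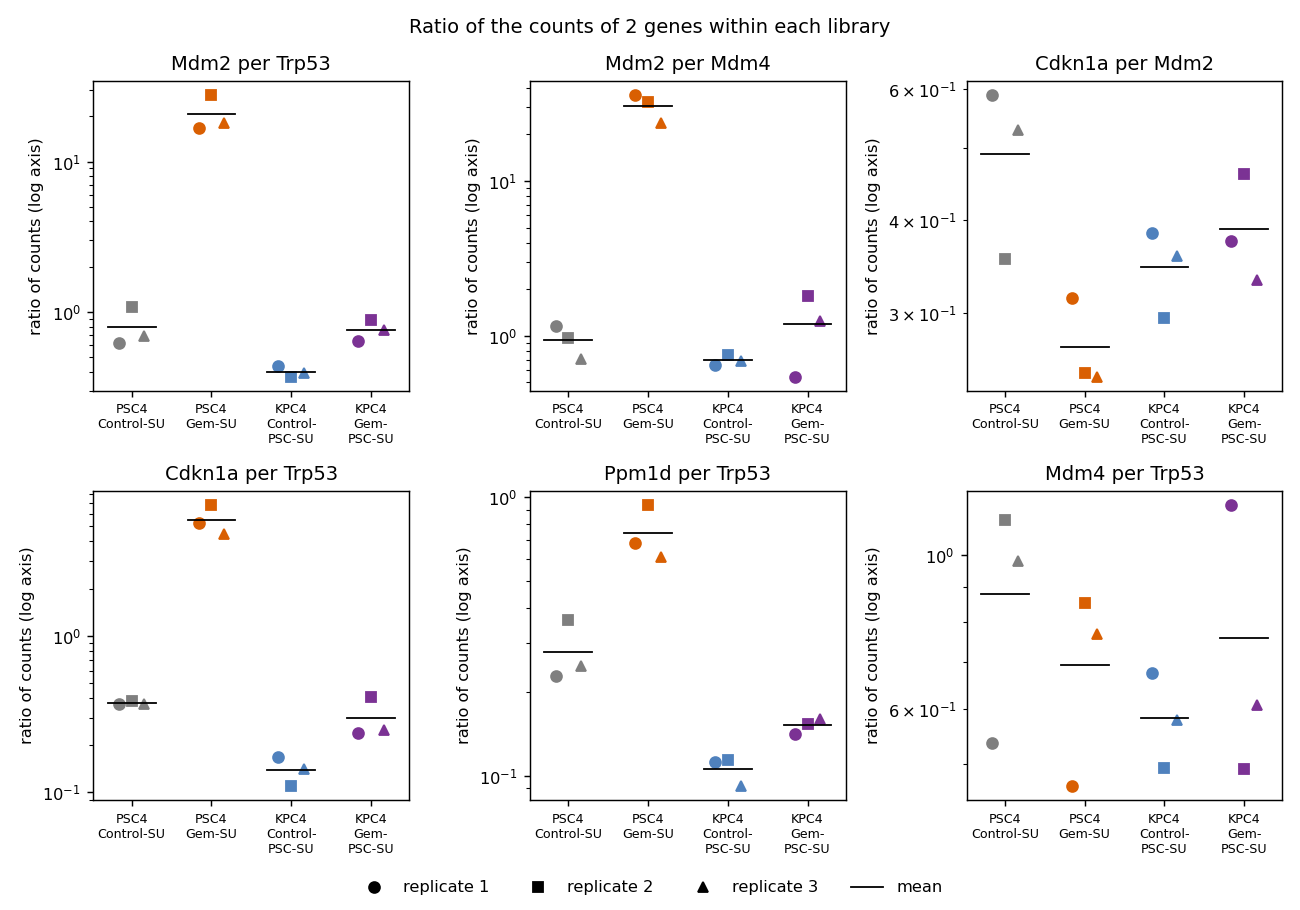
Ratio of the counts of 2 genes within each library (log axes, whose ranges differ between panels) by group, with the replicate number as the marker shape and the group mean as a line. Mdm2 per Trp53 is 0.621 to 1.08 in PSC4 controls and 16.6 to 27.6 with Gem-SU, and between 0.371 and 0.882 in all KPC4 libraries.

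The second comparison asked how tumour cells answer to medium from stellate cells that had met Gem-SU. Mdm2, Cdkn1a, Ppm1d, Mdm4 and Trp53 were each higher with Gem-PSC-SU on average and in 3 of 3 same-numbered pairs. The share of all genes with such pairs was not counted. Of the 5 genes tested, 0 passed in edgeR without a block. Nor did any of the 13236 genes tested (0.0%), although 17.0% had an unadjusted p under 0.05. Same-numbered KPC4 libraries deviated together from their group means, so the number was also used as a block. With the block Mdm2 and Ppm1d passed, as did 8.85% of all genes, 6.07% as higher, and DESeq2 without a block called Mdm2 and Cdkn1a and 6.22% of all genes.

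Mdm2 had 52.3, 63.2 and 56.9 CPM with Control-PSC-SU and 81.2, 197 and 121 CPM with Gem-PSC-SU. All Gem-PSC-SU libraries lay above all controls, but they spread over a wide range, with replicate 2 highest in both groups. The fitted log2 change was 1.22 (SE 0.31; edgeR, adjusted p = 0.138), and 1.12 (SE 0.21) under the block (edgeR, adjusted p = 0.0212). Without Gem-PSC-SU replicate 1 it was 1.48 (edgeR, adjusted p = 0.0133), and without replicate 2 it was 0.80. The authors' deposited table lists 1.17 with an adjusted p of 0.00806.

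Cdkn1a had 20.1, 18.6 and 20.3 CPM with Control-PSC-SU and 30.4, 91.1 and 40.2 CPM with Gem-PSC-SU. The controls were tight and the groups did not overlap, with replicate 2 far above the other Gem-PSC-SU libraries. A log2 fold change of 1.46 (standard error 0.39) gave an adjusted p of 0.149 in edgeR, and 1.28 under the block gave 0.0691. DESeq2 gave an adjusted p of 0.00590. The value without Gem-PSC-SU replicate 2 was 0.82, and without replicate 1 it was 1.75 (edgeR, adjusted p = 0.0212). In the authors' deposited table it is 1.47 with an adjusted p of 0.00877.

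Ppm1d had 13.4, 19.4 and 13.2 CPM with Control-PSC-SU and 17.8, 34.3 and 25.6 CPM with Gem-PSC-SU. Control replicate 2 exceeded Gem-PSC-SU replicate 1, so the groups overlapped. The fitted log2 change was 0.76 (SE 0.29; edgeR, adjusted p = 0.244), and 0.73 (SE 0.18) under the block (edgeR, adjusted p = 0.0495). Leaving out Gem-PSC-SU replicate 2 lowered it to 0.48. In the authors' deposited table it is 0.74 with an adjusted p of 0.183, which does not pass.

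Mdm4 differed from the others in its order of libraries. It had 80.8, 84.0 and 83.3 CPM with Control-PSC-SU and 149, 109.9 and 97.0 CPM with Gem-PSC-SU, highest in replicate 1, where Mdm2 and Cdkn1a were lowest. The groups did not overlap, and the log2 fold change was 0.52 (95% interval 0.075 to 0.96; edgeR, adjusted p = 0.237, or 0.0907 under the block). Without Gem-PSC-SU replicate 1 it was 0.33. In the authors' deposited table Mdm4 is at 0.69 with an adjusted p of 0.127, which does not pass.

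Trp53 had 119, 170.1 and 144 CPM with Control-PSC-SU and 126, 224 and 159.8 CPM with Gem-PSC-SU. The groups overlapped, and replicate 2 was highest in both. Its log2 fold change was 0.24 (95% interval -0.33 to 0.80; edgeR, adjusted p = 0.648), an interval that holds both a small decrease and the 0.76 seen in PSC4. Without Gem-PSC-SU replicate 2 the value was -0.037. Trp63 had 4, 0 and 0 counts with Control-PSC-SU and 2, 1 and 6 counts with Gem-PSC-SU, too few for a test. For Mdm2, Mdm4 and Cdkn1a the KPC4 groups did not overlap, which was so for 22.6% of all genes tested.

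**Figure D3:**
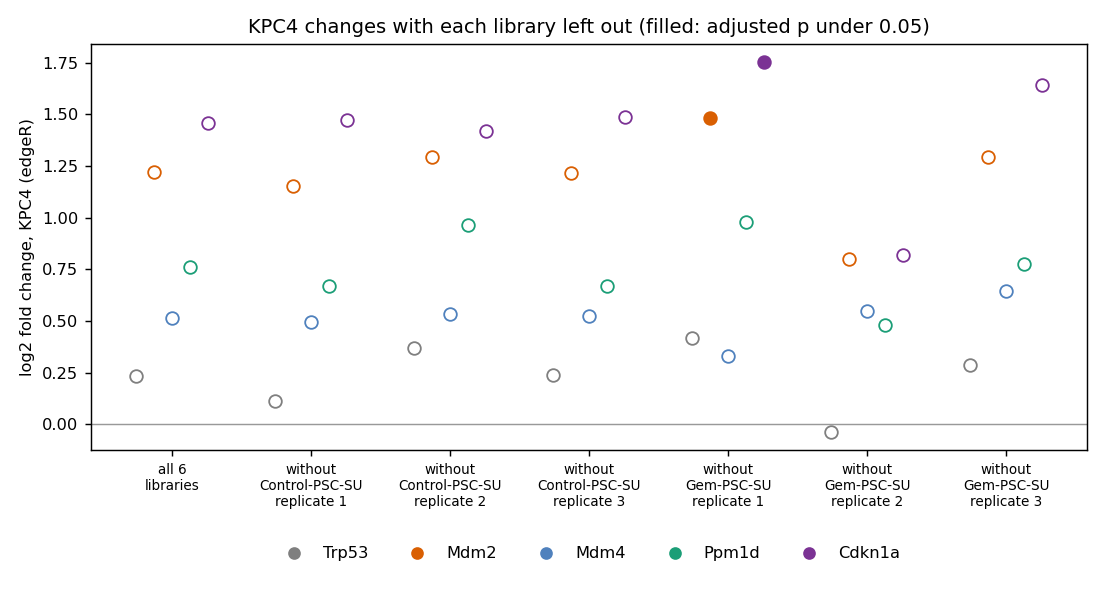
Log2 fold change of each gene in KPC4 (edgeR, Gem-PSC-SU against Control-PSC-SU) with all 6 libraries and with each left out; filled markers have an adjusted p under 0.05. Mdm2 and Cdkn1a are filled only without Gem-PSC-SU replicate 1, and both are lowest, at 0.80 and 0.82, without Gem-PSC-SU replicate 2.

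As for Mdm2, Cdkn1a and Ppm1d, replicate 2 was the highest Gem-PSC-SU library for Ccna2 and Mki67, chosen after their values were seen. Replicate 2 was the highest such library for Btg2, Pmaip1, Sirt1 and Homer1 too, and not for Mdm4. Homer1 and Pmaip1 are among the genes nearest to Cdkn1a over the same libraries, so a like order follows from that choice. The share of all genes with this order was not counted. Ccna2, the cyclin of S phase and mitotic entry, had 32.9, 126 and 44.1 CPM with Control-PSC-SU and 157, 310.3 and 197 CPM with Gem-PSC-SU, and Mki67, a proliferation marker, was also highest in replicate 2 of both groups, at 525 and 1885 CPM. Among the controls, Cdkn1a was instead lowest in replicate 2, at 18.6 CPM against 20.1 and 20.3 CPM. The part of Ccna2 and Mki67 in the KPC4 values of Mdm2 and Cdkn1a was not tested. The ratios within KPC4 libraries moved little beside those of PSC4. Mdm2 per Trp53 went from 0.401 ± 0.0336 to 0.762 ± 0.119 and Cdkn1a per Trp53 from 0.140 ± 0.0294 to 0.300 ± 0.0928 (SD, n = 3 each; two-sided exact permutation test, p = 0.1 for both). Cdkn1a per Mdm2 overlapped between the KPC4 groups, at 0.346 ± 0.0459 and 0.389 ± 0.0661 (SD, n = 3 each; exact p = 0.5).

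The difference between the lines was tested directly as the PSC4 change minus the KPC4 change in one fit of 12 libraries. Of the 6 genes, 4 were called, against 9.85% of 13632 genes tested. Mdm2 changed by 4.24 more in PSC4 on the log2 scale (standard error 0.41; edgeR, adjusted p = 2.42e-04) and Cdkn1a by 3.14 more (standard error 0.47; edgeR, adjusted p = 0.00172). The difference for Ppm1d was 1.40 (standard error 0.35; edgeR, adjusted p = 0.0255), and its adjusted p went to between 0.0564 and 0.0822 when PSC4 Control-SU replicate 3, PSC4 Gem-SU replicate 2, KPC4 Control-PSC-SU replicate 2 or KPC4 Gem-PSC-SU replicate 3 was left out. Trp63 was also called (-7.61, standard error 1.35; edgeR, adjusted p = 0.00433), but KPC4 gave at most 6 counts per library. A fall of this kind could thus not have been measured there, its call rests on PSC4, and the fitted value is no bound. For Trp53 the difference was 0.48 (95% interval -0.22 to 1.18; edgeR, adjusted p = 0.380). That of Mdm4 was -0.086 (95% interval -0.73 to 0.56; edgeR, adjusted p = 0.888), and with plain library totals it was 0.0036. The lines received different media, so the line and the kind of supernatant cannot be told apart.

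**Figure D4:**
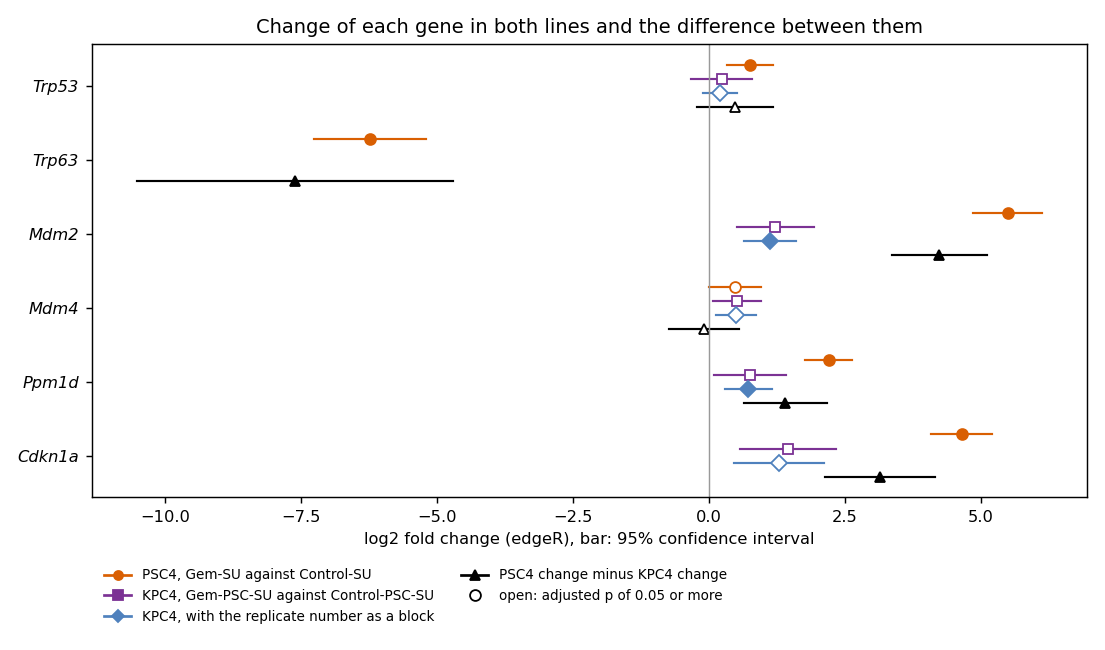
Log2 fold changes from edgeR with 95% confidence intervals for each gene in PSC4, in KPC4 without and with that number as a block, and for the PSC4 change minus the KPC4 change; open markers have an adjusted p of 0.05 or more. Mdm2, Cdkn1a and Ppm1d lie farther right in PSC4 than in KPC4. Mdm4 lies at 0.48 in PSC4 and 0.52 in KPC4, and Trp53 at 0.76 and 0.24, and the difference passed for neither.

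Between the control groups, PSC4 with Control-SU and KPC4 with Control-PSC-SU, 3 of the 6 genes differed, against 42.9% of 13632 genes tested. Trp63 was higher in PSC4 (533 counts in 3 libraries against 4), with a ratio of 134 and a counting interval from 52.1 to 495. Cdkn1a was higher in PSC4 by 0.96 on the log2 scale (edgeR, adjusted p = 0.0293) and Ppm1d by 0.87 (edgeR, adjusted p = 0.0124). Both calls were fragile: Cdkn1a lost its call without any one of PSC4 Control-SU replicates 1 and 3 or KPC4 Control-PSC-SU replicates 1, 2 and 3 (adjusted p up to 0.113), and Ppm1d without PSC4 Control-SU replicate 2 or KPC4 Control-PSC-SU replicates 1 and 3 (up to 0.0695). The difference was 0.47 for Mdm2 (95% interval -0.13 to 1.07), 0.059 for Mdm4 (95% interval -0.40 to 0.51) and -0.48 for Trp53 (95% interval -0.97 to 0.013), none of which passed.

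Per kilobase of annotated exon, the order of mean levels in PSC4 with Control-SU was Trp53 (25.6 ± 6.18 CPM per kb), Mdm2 (15.7), Cdkn1a (10.8), Ppm1d (8.83), Mdm4 (5.82) and Trp63 (0.666). With Gem-SU, Mdm2 led at 685 CPM per kb and Cdkn1a followed at 262, ahead of Trp53 at 42.0 and Ppm1d at 39.5, which lay within each other's spread. Mdm4 was then at 7.87. In KPC4, Trp53 was first in both groups, at 35.8 and 42.0 CPM per kb, and Mdm2 second, at 11.3 and 26.2. The neighbours Mdm4, Cdkn1a and Ppm1d in KPC4 controls, at 5.59, 5.54 and 4.83, did not differ beyond their spread. Lengths come from a mouse annotation that may differ from the authors' own, so the order is approximate.

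The genes around the circuit were grouped into 5 lists, whose PSC4 counts are to be read against the 24.3% of all genes tested that were called higher and the 22.0% called lower. Among upstream damage kinases and adaptors, 3 of 12 rose in PSC4, a share close to that of all genes, and 0 fell, with a median log2 fold change of 0.18, where the median over all genes tested was -0.0032. The called genes were Clspn, the adaptor that brings Chk1 to the kinase ATR (57.2 ± 4.75 to 248 ± 27.4 CPM), Atrip, the partner of ATR (20.0 ± 3.17 to 40.1 ± 5.67 CPM), and Nbn, part of the break-sensing MRN complex (42.8 ± 5.29 to 73.0 ± 3.77 CPM; SD, n = 3 in each case). Of 19 modifiers of p53, 6 rose and 4 fell, also near the shares of all genes. The smallest p-values were those of Sirt1, a deacetylase that acts on p53 (41.1 ± 3.00 to 336 ± 41.8 CPM, 3.08 on the log2 scale), Trp53bp2 (1.59) and Ppp1r13b (1.31), which encode the p53-binding proteins ASPP2 and ASPP1. Ppp1r13l of the same list, also named after its value was seen, rose by 2.07 (edgeR, adjusted p = 5.61e-04). Those that fell, named after their values were seen because they are 4, were Cdkn2a (-1.11), Setd7 (-1.08), Kat5 (-0.52) and Ube4b (-0.46).

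Of 22 other p53 target genes, 19 rose and 1 fell in PSC4, against 24.3% and 22.0% of all genes tested, with a median of 2.74. Bax (0.77) and Gadd45a (0.46), the remaining genes, did not pass (edgeR, adjusted p = 0.180 and 0.139). Pmaip1, which encodes the cell death protein Noxa, went from 4.34 ± 0.965 to 104 ± 10.2 CPM, and the stress hormone gene Gdf15 from 1.27 ± 0.201 to 47.3 ± 3.71 CPM (SD, n = 3 each). Plk2, a kinase of the cell cycle and stress response, went from 79.0 ± 14.1 to 1018 ± 47.8 CPM. The single gene that fell was Sesn1, by 1.40 on the log2 scale, and it is named because its count is 1, after its value was seen. Many of these genes are also known targets of other stress pathways.

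Of 17 cell cycle partners of p21, 7 rose and 2 fell, against 24.3% and 22.0% of all genes tested, with a median of 0.42. The smallest p-values belonged to the cyclin E genes Ccne1 (14.2 ± 1.34 to 82.9 ± 13.7 CPM) and Ccne2 (31.7 ± 2.31 to 161 ± 26.9 CPM) and to Cdc25a, the phosphatase that activates CDK2 (40.2 ± 5.22 to 143 ± 18.2 CPM; SD, n = 3 each). Ccna2 rose as well, by 0.93 (edgeR, adjusted p = 0.0018). Among the other cyclin genes of the list Ccnd2 rose by 0.72, while Ccnd1 (0.47), Ccnb1 (0.27) and Ccnd3 (-0.15) did not pass. The 2 genes of the list that fell, named after their values were seen, were Rbl2 (-0.84) and Rbl1 (-0.73), while Rb1 rose by 0.50. From the p63 and epithelial list, 10 of 16 genes could be tested, of which 2 rose and 1 fell. Krt17 gave 0 counts in every control and 10 to 34 counts with Gem-SU, at least 6.64-fold higher against 3 counts per library. The laminin receptor gene Itga6 rose by 1.40 and Sfn, a p53 and epithelial gene, fell by 1.26, from 3.55 ± 1.08 to 1.43 ± 0.343 CPM.

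In KPC4 none of these lists held a called gene without the block (edgeR, adjusted p under 0.05), where 0 of all 13236 genes tested were called. Medians were 0.30 for damage kinases, 0.19 for modifiers, 0.38 for other p53 targets, 0.62 for cell cycle partners and -0.15 for the p63 list, against -0.019 over all genes tested. With the block, 6.07% of the 13236 genes tested were called higher. Only 368 genes were called lower, so lists this short would hold few of those. Of the lists other than the p63 list, 3, 1, 7 and 6 genes rose and 0 fell. Among them were the targets Pmaip1 (25.1 ± 6.09 to 115 ± 41.8 CPM; 2.15 under the block, adjusted p = 0.0252 in edgeR) and Btg2, an antiproliferative gene (26.0 ± 2.82 to 145 ± 82.0 CPM; 2.29, adjusted p = 0.0222). From the other lists, Chek1, which encodes Chk1, was 1.40 and Mdc1, a mediator of the break response, 0.91 under the block (edgeR, adjusted p = 0.00804 and 0.0181). Ccna2 was 1.90, Cdc25a 0.86 and Sirt1 1.25, each called under the block. Trp53bp2 (0.43) and Sfn (0.49) were not.

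**Figure D5:**
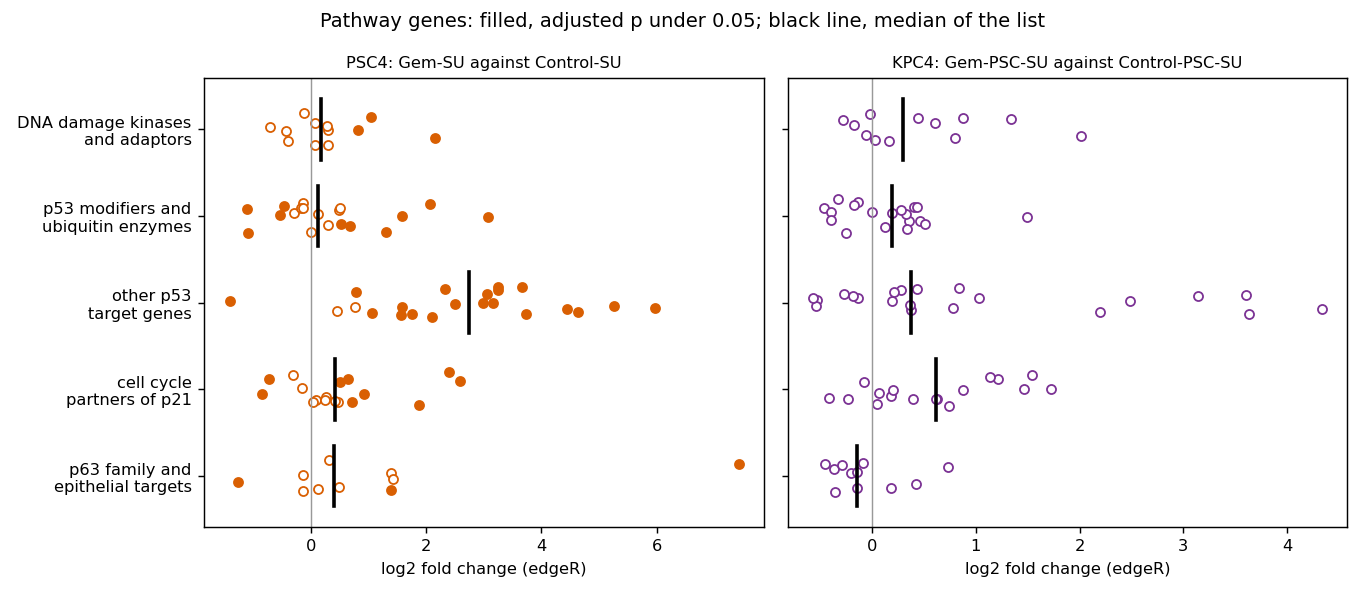
Log2 fold change from edgeR of every tested gene of the 5 lists in PSC4 (left) and KPC4 (right), filled where the adjusted p is under 0.05, with a black line at the list's median; the axes differ in range. Other p53 targets have a median of 2.74 in PSC4 and 0.38 in KPC4, where no marker is filled.

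The genes whose pattern over the 12 libraries was nearest to each member were found among 10336 genes, by the root mean square difference of log2 CPM centred within each line. For Mdm2 the nearest was Cdkn1a, at 0.373, followed by Cpeb2, an RNA-binding regulator of translation (0.387), and Homer1, a synaptic scaffold gene (0.432). Nearest to Cdkn1a were Homer1 (0.352), Hbegf, a ligand of the EGF receptor (0.358), and Pmaip1 (0.368). These genes rose in PSC4 to a like degree, Homer1 by 4.63, Hbegf by 4.61 and Cpeb2 by 4.85. That likeness follows from the choice by distance over the same libraries and is no separate result. Ppm1d was nearest to Wrap53 (0.174), the neighbour of Trp53, then to Enc1 (0.189) and Nt5dc3 (0.212). For Trp53 the nearest were the splicing genes Prpf31 (0.0857) and Srsf6 (0.111) with Med6, a Mediator subunit gene, between them (0.107), while Trp53 was 1.72 from Mdm2. Mdm4 lay nearest to Pdpk1 (0.116), Elmod2 (0.125) and Elf4 (0.129). For Trp63 the nearest were Serpinb1a (0.780), Cxcl5 (0.782) and the linker histone gene H1f0 (0.902). Distances grow with a gene's own root mean square, 2.02 for Trp63, 1.99 for Mdm2 and 0.320 for Mdm4, so members cannot be compared directly. Trp63 gave at most 6 counts per library in KPC4 and at most 3 with Gem-SU in PSC4, so counting error enters its distances.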

How the data were processed

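Per the labels, RNA of 12 libraries was sequenced on an Illumina NovaSeq X Plus. The authors deposited 1 table of raw counts per gene for each line, as whole numbers without normalization, and for each line a comparison table by gene symbol (log2 fold change, p-value, adjusted p-value), used only as the authors' values. FastQC, Trim Galore 0.6.10, cutadapt 5.2, Salmon, R 4.5.1, DESeq2 and GRCm39 are named without roles, per the submitters' processing notes. Annotation, strand setting and any removal of low genes are not given in the sources used here. The smallest row total is 0 counts in the PSC4 table and 11 in the KPC4 table. Genes with near-identical copies are uncertain.

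Samples were grouped by title, with 0 columns of such values unused. Symbols came from GENCODE M21 (16329 of 16386 identifiers in PSC4, 15265 of 15309 in KPC4). Because of the build, no coordinates are given except those of RefSeq windows, printed from GRCm38.p6. Counts were tested in R 4.3.3 with edgeR 4.0.16 (filterByExpr, TMM, robust quasi-likelihood test, Benjamini-Hochberg over all genes tested, threshold 0.05), each line alone, and in one fit of 12 libraries for the difference between lines and for the control groups, over genes in both tables. The fits were tested on simulated data with 200 genes changed. Exact permutation tests used scipy 1.17.1. Depth lets 1 count stand for a small share of a library, and the spread between replicates was far larger than counting error. With 3 libraries a group, p-values measure the spread between these cultures only as far as the label biological replicate goes.

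The members and lists were chosen with earlier results of these data known. Named genes were all 6 members, the 3 genes nearest to each (log2 CPM, prior count 2, mean of at least 5 CPM) and, from each list, the 3 with the smallest p in PSC4 and the 2 in KPC4, of which 1 is not reported here. Same-numbered libraries deviated together in KPC4 (correlations of deviations 0.474, 0.539 and 0.327, all over 0.1), so the number was taken to pair them, from the values alone, and not in PSC4 (0.617, 0.0780 and 0.136). Alternatives were leaving out each library, the replicate block, DESeq2 1.42.0, its size factors within edgeR, robust estimation off, one fit of all libraries, and the count filter dropped or set to 10 counts in each library. Chosen after seeing the data were plain library totals and DESeq2 with the block.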

Additional observations from a re-analysis of the deposited data

Results flagged for a closer look

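Of the 6 genes, 4 were called in a test of the difference between the PSC4 and KPC4 changes (edgeR interaction term over 12 libraries, 9.85% of all genes called). The PSC4 change minus the KPC4 change on the log2 scale was 4.24 for Mdm2 (adjusted p = 2.42e-04), 3.14 for Cdkn1a (adjusted p = 0.00172), 1.40 for Ppm1d (adjusted p = 0.0255) and -7.61 for Trp63 (adjusted p = 0.00433). For Mdm2, Cdkn1a and Ppm1d every Gem-SU library stood above every control in PSC4, where groups did not overlap for 56.7% of all genes tested. In KPC4 all 3 same-numbered pairs were higher for each of them, a trait whose share over all genes was not counted. For Trp63 the KPC4 libraries held 0 to 6 counts, so a fall could not have been measured there. Its call rests on PSC4, and the size of its difference is uncertain. The PSC4 change alone was -6.24, and the difference ran from -11.1 to -6.60 over the alternatives that test it.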

How the results depend on the processing

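In PSC4, the direction of every member and the calls of Mdm2, Cdkn1a and Ppm1d held under all 15 alternatives, and that of Trp63 under the 14 that test it; at least 10 counts in every library leaves Trp63 out. Leaving out 1 library put the number of called genes between 4061 (without Gem-SU replicate 2) and 6826 in PSC4, against 6177. In KPC4 the count of 0 was most dependent on the method: 823 with DESeq2, 610 in one fit of all libraries, 1 with plain library totals, 2184 with DESeq2 and the block, and 0 to 1129 with 1 library left out, with 174 when Control-PSC-SU replicate 2 was dropped and the most when Gem-PSC-SU replicate 1 was. Members called there numbered 2 with DESeq2, 2 in one fit, 4 with DESeq2 and the block, and 0 to 2 with 1 library left out. The difference between lines was called for 2148 genes with DESeq2, 3478 with DESeq2 and the block, and 610 to 1993 with 1 library left out, against 1343. Between controls, 5 members were called with DESeq2 and the block and 1 to 3 with 1 library left out, against 3. Over all genes these settings called 7266 of 13632 and 4954 to 6272, against 5842, so such calls were common.

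With the replicate block the KPC4 count was 1171 genes and 2 members, the difference between lines was called for 2988 genes, and the PSC4 count was 7266. In PSC4, where the numbers were not taken to pair, the block also called Mdm4 (adjusted p = 0.0104), and between controls it called Trp53 (-0.49, adjusted p = 0.0109); it changed no other call of a member beyond those given with the KPC4 values.

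Signs turned only for values near zero. Trp53 in KPC4 ranged from -0.037 (without Gem-PSC-SU replicate 2) to 0.42 with 1 library left out. The difference between lines for Mdm4 was 0.0036 with plain library totals, which move the median of all genes from -0.094 to 0.00086, and lay between -0.23 and 0.092 with 1 library left out. Mdm4 between controls was -0.090 to 0.18 with 1 library left out. The causes were not tested. Depth limits Trp63 in KPC4, where a change cannot be measured.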
